A study of Mus musculus with 33 samples.

Results

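The liver takes up glucose after a meal, stores it as glycogen or breaks it down by glycolysis, and during fasting releases glucose from glycogen and by gluconeogenesis. This account follows 8 genes of those routes. Pklr encodes the liver pyruvate kinase of the last glycolytic step. Pck1, G6pc, Fbp1 and Pcx encode enzymes of gluconeogenesis, Slc2a2 encodes the glucose transporter GLUT2, and Gys2 and Pygl encode liver glycogen synthase and phosphorylase. The genes were taken by the symbol of the platform annotation, which gave 16 probe sets of 45101 in the table. Of the 16, 12 are ordinary probe sets and 4 are the array maker's control probe sets for Pcx. All 8 genes were among the 9005 genes tested, and 15 of the 16 probe sets passed the filter on dim values (a log2 value of at least 4 on at least 10 arrays).

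Livers came from 33 male C57BL/6J mice aged 17 weeks, with 1 Affymetrix array per liver. The fenofibrate diet (n = 12) held 0.03% (w/w) of the PPARα agonist fenofibrate with sunflower oil at 7% of energy. The fish oil diet (n = 11) held a fish oil with 23.1% EPA and 21.1% DHA at 7% of energy, and no sunflower oil. The control diet (n = 10) held the same oleic acid rich sunflower oil (81.3% oleic acid) at 7% of energy and no drug. All 3 groups ate their diet for 2 weeks and went without food from 7 to 13 o'clock before the livers were taken, so every level below belongs to a short daytime fast. The mice were housed 2 to a cage, and which mice shared a cage is not given in the sources used here.

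PPARα is a nuclear receptor that fatty acids and fibrate drugs activate and that turns on genes of fatty acid use in the fasted liver. Pklr is a textbook target of carbohydrate feeding: insulin and glucose raise it through the factor ChREBP, encoded by Mlxipl, and polyunsaturated fatty acids lower it. Pck1 and G6pc are raised by glucagon through cyclic AMP and lowered by insulin.

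Values are log2 expression per probe set, and differences are log2 differences between diet means ± SE from 1 limma model over all 33 arrays. A gene was called at a Benjamini-Hochberg adjusted p under 0.05 over all 9005 genes. By that rule 3 of the 8 genes were called on fenofibrate against control (Pklr, Fbp1 and Pygl, all lower), where 40.8% of all genes tested were called. On fish oil against control 1 of 8 was called (Pklr, lower), where 14.5% of all genes were called. Between fenofibrate and fish oil 2 of 8 were called (Fbp1 and Pygl, both lower on fenofibrate), where 38.9% of all genes were called. These shares lie near or below those of all genes, so the count itself sets the 8 genes apart in no comparison. The median difference over the 8 genes was -0.16 for fenofibrate against control and -0.09 for fish oil against control, and over all genes it was -0.00162 and 0.0144. The 2 comparisons with control share the same 10 control arrays.

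All 8 hepatocyte markers were measured, so the label of the tissue held. Their summed level (log2 of the summed linear values) lay between 17.06 and 17.20 on fenofibrate, between 17.16 and 17.26 on fish oil and between 17.22 and 17.33 in controls. Against control, 6 of the 8 were called lower on fenofibrate and 3 of 8 on fish oil. Of all genes tested, 18.9% were called lower and 22% higher on fenofibrate, and 7% lower and 7.53% higher on fish oil. These shares stand beside every marker count in this paragraph. No marker of muscle (0 of 6) or kidney (0 of 5) passed the filter. In whole liver, fewer cells of a type and less RNA per cell cannot be told apart. Markers of Kupffer cells ranged from 11.99 to 13.02 on fenofibrate, from 12.37 to 13.20 on fish oil and from 12.52 to 13.20 in controls, and 2 of 7 were called lower on fenofibrate. Of 6 sinusoidal endothelial markers 2 were lower on each diet and 1 higher on fenofibrate, and of 5 measured stellate cell markers 2 were lower and 1 higher on fenofibrate. Of 2 measured lymphocyte markers 1 was higher and 0 lower on fenofibrate. Only 1 listed marker each was measured for blood cells (Alas2), adipocytes (Car3) and acinar cells (Cela1), and each was lower on fenofibrate. The other adipocyte markers, Adipoq, Lep, Plin1, Cfd and Retn, did not pass the filter, so Car3 alone does not show that adipocytes were present. The 1 measured cholangiocyte marker, Sox9, was not called. The part of these cell types in the results was not tested.

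**Figure D1:**
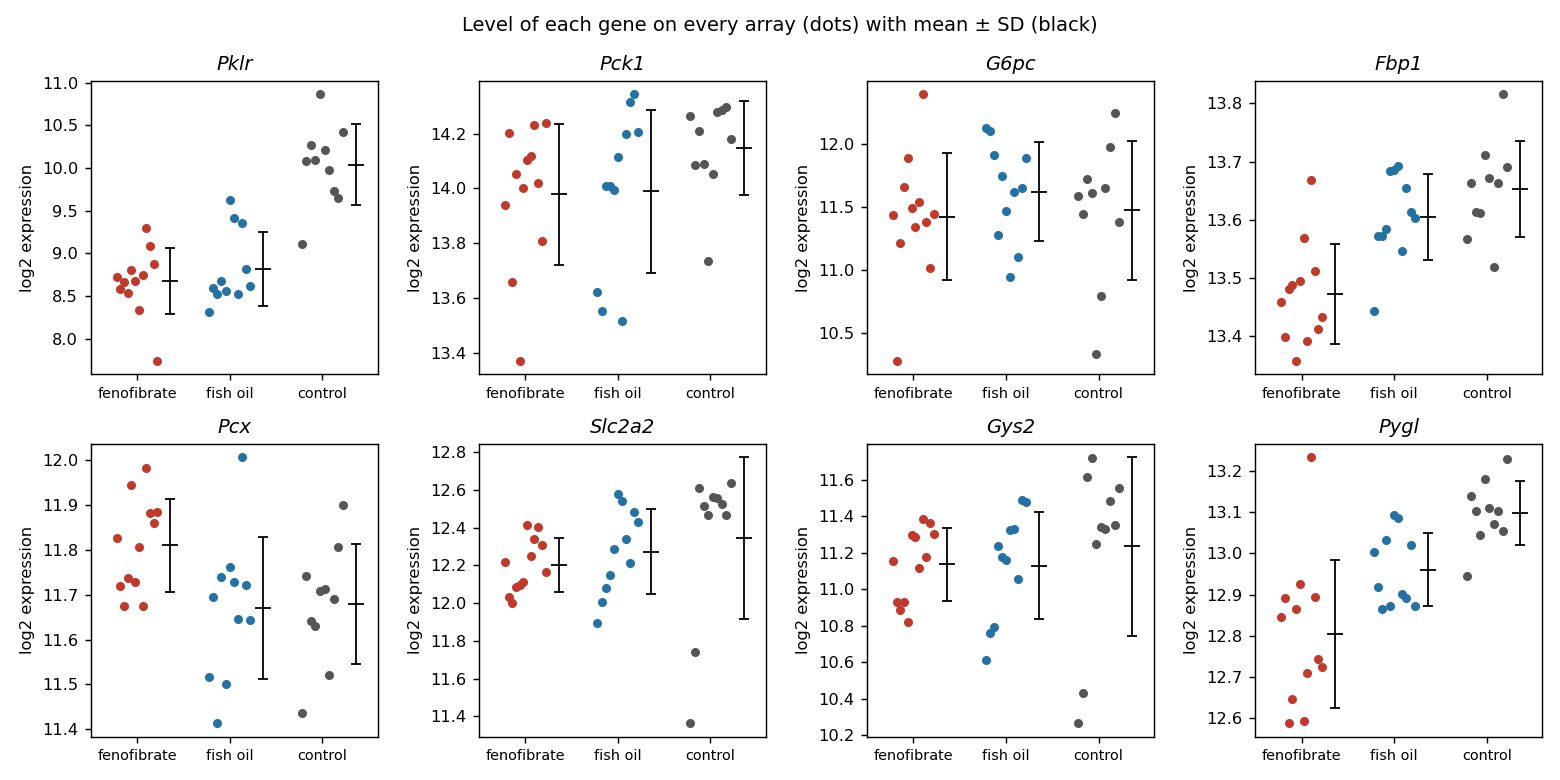
Log2 expression of the 8 genes (vertical axes) by diet, with 1 dot per array and the mean ± SD beside each group (n = 12, 11 and 10). Pklr separates both treated diets from controls except for 1 low control array, whereas Pck1, G6pc and Pcx overlap widely.

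Pklr was the member with the largest difference on either diet. It had 7.74, 8.70 and 9.30 (lowest, median and highest log2 level) on fenofibrate and 8.31, 8.61 and 9.63 on fish oil, against 9.11, 10.08 and 10.86 in controls. The groups overlapped through a single array: control replicate 1 stood at 9.11, and the next control stood at 9.64, above all 12 fenofibrate arrays and all 11 fish oil arrays. Pklr was lower by -1.37 ± 0.18 on fenofibrate, 2.58-fold (adjusted p = 1.44e-07). On fish oil it was lower by -1.22 ± 0.18, 2.33-fold (adjusted p = 9.42e-06). Called differences of at least 1 in size made up 2.91% of all genes on fenofibrate and 1.09% on fish oil. The drug and the oil could not be separated at this gene: the difference of fenofibrate from fish oil was -0.15, with a 95% confidence interval of -0.50 to 0.20 (adjusted p = 0.531).

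The 3 probe sets of Pklr moved together. On fenofibrate the differences from control were -1.37 for probe set 1421258_a_at, -1.58 for 1421259_at and -1.22 for 1438711_at, and on fish oil they were -1.22, -1.55 and -1.11. Each was called in the fit over 17166 probe sets, where 36.6% were called on fenofibrate and 11.6% on fish oil. None of the 3 was called between fenofibrate and fish oil, where 34.5% of probe sets were. Probe set 1421259_at had a mean of 6.53 ± 0.55 on fenofibrate and 6.56 ± 0.47 on fish oil against 8.11 ± 0.69 in controls (SD). Within a diet Pklr was among the more variable genes, with an SD of 0.43 about the diet means, above the SD of 93.7% of all genes tested (median over genes 0.20).

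**Figure D2:**
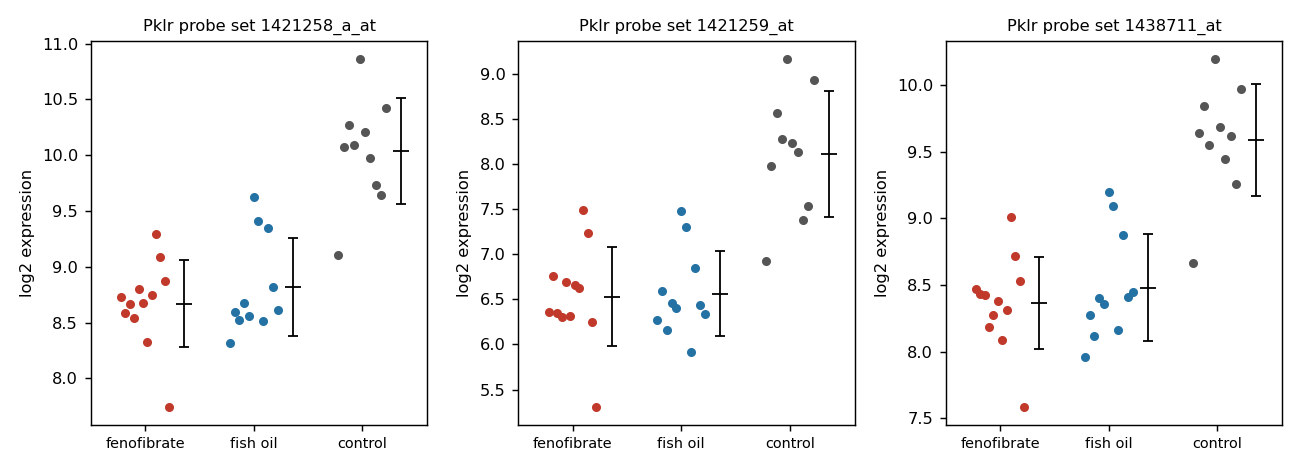
Log2 expression of the 3 Pklr probe sets (vertical axes) by diet, with 1 dot per array and the mean ± SD. On each probe set the fenofibrate and fish oil arrays lie at like levels, below nearly all control arrays.

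The promoter of Pklr is shown because it is the member that moved most and because its liver control region is well studied. RefSeq gives Pklr 2 start sites on chromosome 3 of GRCm38.p6. The 250 bases before the downstream start, chr3:89136373-89136622 on the plus strand, are printed with 2 motif matches in capitals.

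Pklr downstream promoter: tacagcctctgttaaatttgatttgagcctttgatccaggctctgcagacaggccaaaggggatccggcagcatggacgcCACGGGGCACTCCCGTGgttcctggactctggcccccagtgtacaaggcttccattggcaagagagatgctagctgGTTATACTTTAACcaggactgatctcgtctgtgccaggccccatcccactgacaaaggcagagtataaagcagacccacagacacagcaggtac

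The first stretch of capitals, 170 to 154 bases before the start, matches CACGNG and CNCGTG set 5 bases apart, the paired sites of the carbohydrate response element that ChREBP binds. The second, 94 to 82 bases before the start, matches GTTA and TAAC set 5 bases apart, the palindrome of the liver factor HNF1. Searched on both strands, the first motif stood in 13 of 32851 promoter windows of that length (0.0396%) and the second in 101 (0.307%). The 250 bases before the upstream Pklr start held neither. A match describes the letters and shows no binding.

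The part of ChREBP in the Pklr values was not tested. Only the transcript of its gene, Mlxipl, was measured here, and it was called lower than control on neither diet. Its level was 10.45 ± 0.19 on fenofibrate and 10.76 ± 0.14 on fish oil against 10.53 ± 0.19 in controls (SD), with differences from control of -0.08 ± 0.07 (adjusted p = 0.392) and 0.23 ± 0.08 (adjusted p = 0.0348). The fish oil call was lost without any one of 9 arrays, fish oil replicates 1, 2, 3, 5 and 11 and control replicates 3, 5, 7 and 9, and in 4 other alternatives (adjusted p up to 0.135). The nuclear receptor gene Hnf4a was lower on fenofibrate by -0.42 ± 0.06 (adjusted p = 3.90e-07), and on fish oil it differed by 0.06 ± 0.06 (adjusted p = 0.585).

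Among the genes of gluconeogenesis, Pck1 encodes the cytosolic carboxykinase that makes phosphoenolpyruvate. Its probe set 1423439_at had 13.37, 14.04 and 14.24 (lowest, median and highest) on fenofibrate and 13.52, 14.01 and 14.34 on fish oil, against 13.74, 14.20 and 14.30 in controls. The ranges overlapped, and on both diets a few arrays lay below all controls: 2 of 12 on fenofibrate and 3 of 11 on fish oil. The difference was -0.17 ± 0.10 on fenofibrate (95% confidence interval -0.38 to 0.04, adjusted p = 0.202) and -0.16 ± 0.11 on fish oil (-0.38 to 0.06, adjusted p = 0.353). The second probe set, 1439617_s_at, gave -0.20 and -0.27, neither called. The third, 1455209_at, averaged 2.04 on fenofibrate, 2.78 on fish oil and 2.81 in controls, which is below the filter, so it was not tested. The values of Pck1 lie near the top of the array's scale, where differences can be compressed.

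G6pc encodes the catalytic subunit of glucose-6-phosphatase, which frees glucose for release. It had 10.28, 11.44 and 12.39 on fenofibrate and 10.94, 11.65 and 12.13 on fish oil, against 10.33, 11.59 and 12.24 in controls. All 3 groups spanned over 1 log2 unit and overlapped almost completely. Its within-diet SD of 0.48 exceeded that of 95.6% of genes, and the differences from control were -0.05 ± 0.20 on fenofibrate (adjusted p = 0.866) and 0.15 ± 0.20 on fish oil (adjusted p = 0.698). With intervals of -0.46 to 0.35 and -0.27 to 0.56, differences of the size seen for Pklr lie outside what these arrays allow. The 250 bases before the starts of Pck1 and G6pc each held a match to TTACGTNA, a cyclic AMP response element type, TTACGTCA at 93 to 86 bases and TTACGTAA at 162 to 155 bases before the start. That motif stood in 0.788% of all windows and in none of the windows found for the other members; 7 of the 8 genes had a window.

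Fbp1 encodes fructose bisphosphatase, and it was lower on fenofibrate by a small and even amount. It had 13.36, 13.47 and 13.67 on fenofibrate and 13.44, 13.60 and 13.69 on fish oil, against 13.52, 13.66 and 13.82 in controls. On fenofibrate 10 of 12 arrays lay below the lowest control, and on fish oil 1 of 11 did. The difference was -0.18 ± 0.04 on fenofibrate, 1.13-fold lower (adjusted p = 4.41e-04), and -0.05 ± 0.04 on fish oil (adjusted p = 0.486). The difference of fenofibrate from fish oil was itself called, at -0.13 ± 0.04 (adjusted p = 0.00670). Fbp1 was among the steadiest genes, with a within-diet SD of 0.08, above that of only 3.08% of genes. The summed hepatocyte markers were lower on fenofibrate as well, as given above, and their part in this small difference was not tested.

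Pcx encodes the mitochondrial pyruvate carboxylase that supplies oxaloacetate to gluconeogenesis. It had 11.67, 11.82 and 11.98 on fenofibrate and 11.41, 11.70 and 12.01 on fish oil, against 11.44, 11.70 and 11.90 in controls. The difference on fenofibrate was 0.13 ± 0.06 (adjusted p = 0.0711) and on fish oil -0.01 ± 0.06 (adjusted p = 0.954), neither called. Fenofibrate against fish oil gave 0.14 ± 0.06 (adjusted p = 0.0508), which was called without any one of 8 arrays (fenofibrate replicates 2, 3, 4, 6 and 8 and fish oil replicates 4, 6 and 9) and in 6 other alternatives. Against control, Pcx was called on fenofibrate without control replicate 10 (0.16, adjusted p = 0.0327), with array weights (0.13, adjusted p = 0.0456) and without the arrays whose label number carries the letter A (0.15, adjusted p = 0.0462). The 4 control probe sets of Pcx differed from control by 0.12 to 0.34 on fenofibrate, and none was called (adjusted p = 0.0517 for the one at the 5′ end). The 3′ minus 5′ difference between these probe sets, a sign of RNA integrity, ranged from 2.74 to 3.50 on fenofibrate, from 2.71 to 3.68 on fish oil and from 2.94 to 4.37 in controls. Its part in the Pcx values was not tested.

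**Figure D3:**
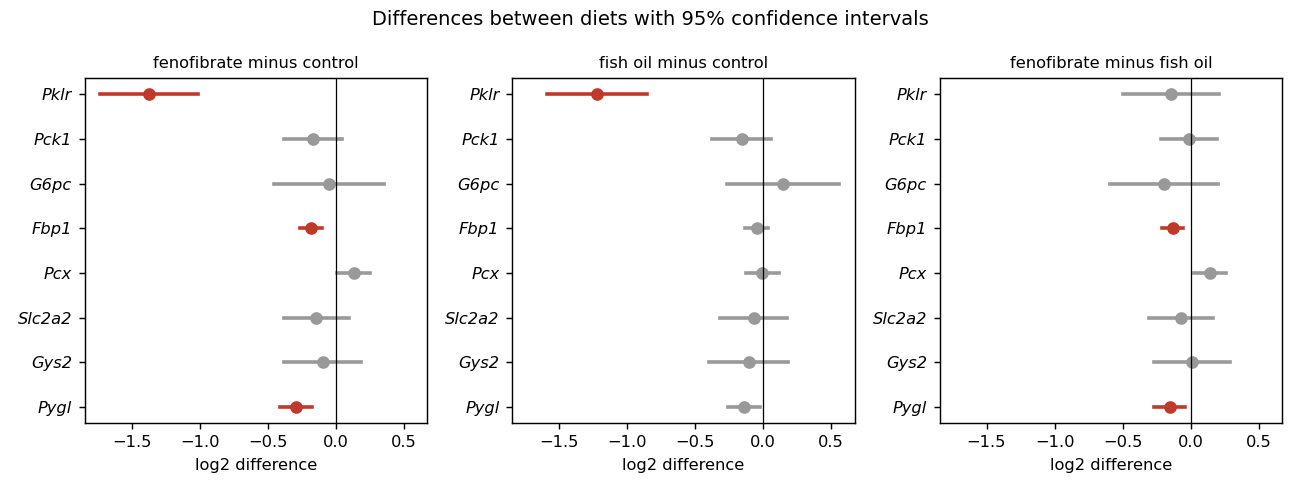
Log2 differences of the 8 genes between diets with 95% confidence intervals, red where called and grey where not. Pklr lies beyond -1 against control on both diets and spans 0 between them, and the intervals of Fbp1 and Pygl are narrow and below 0 for fenofibrate.

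Pygl encodes the liver phosphorylase that breaks glycogen down. It had 12.59, 12.80 and 13.23 on fenofibrate and 12.87, 12.92 and 13.09 on fish oil, against 12.94, 13.10 and 13.23 in controls. On fenofibrate 11 of 12 arrays lay below every control, and the other, fenofibrate replicate 9 at 13.23, lay above them all. Pygl was lower by -0.29 ± 0.06 on fenofibrate, 1.23-fold (adjusted p = 8.88e-05). On fish oil 6 of 11 arrays lay below every control, and the difference of -0.14 ± 0.06 was not called (adjusted p = 0.110; adjusted p = 0.0407 with only those diets in the fit). Fenofibrate was lower than fish oil by -0.15 ± 0.06 (adjusted p = 0.0253), a call lost with pairs of consecutive label numbers as a random block (adjusted p = 0.0503), and without the arrays whose label number carries the letter A (adjusted p = 0.105).

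Slc2a2, the glucose transporter, and Gys2, the glycogen synthase, were spread widely among the controls. Slc2a2 had 12.00, 12.19 and 12.41 on fenofibrate and 11.89, 12.29 and 12.58 on fish oil, against 11.36, 12.52 and 12.64 in controls. Gys2 had 10.82, 11.17 and 11.38 on fenofibrate and 10.61, 11.18 and 11.49 on fish oil, against 10.27, 11.35 and 11.72 in controls. The control minimum came in both genes from control replicate 1, followed by replicate 2: these arrays stood at 11.36 and 11.74 for Slc2a2 and at 10.27 and 10.43 for Gys2. The other 8 controls lay between 12.47 and 12.64 for Slc2a2 and between 11.25 and 11.72 for Gys2. Control replicates 1 and 2 carry label numbers 3 and 4. Fish oil replicates 1, 2 and 3, with label numbers 1, 2 and 5, had the lowest levels of both genes on that diet. They stood at 10.61, 10.76 and 10.79 for Gys2 and at 11.89, 12.01 and 12.08 for Slc2a2. Label numbers are not spread evenly over the diets (7 to 14 are all fenofibrate), and the part of label order was not tested.

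In the unweighted fit of all arrays neither gene was called. Slc2a2 differed by -0.14 ± 0.12 on fenofibrate and -0.07 ± 0.12 on fish oil (adjusted p = 0.354 and 0.759), and Gys2 by -0.10 ± 0.14 and -0.11 ± 0.14 (adjusted p = 0.615 and 0.689). With array weights on the same 33 arrays, both were called lower on fenofibrate, Slc2a2 by -0.28 (adjusted p = 0.0104) and Gys2 by -0.28 (adjusted p = 0.0436). The weights were estimated from these same data, by how far each array lay from its diet means, so deviating arrays counted less. No separate measure of quality entered, so the weighted fit is no independent support for either call. Without control replicate 1 alone, Slc2a2 was called on fenofibrate (-0.25, adjusted p = 0.0290), and Gys2 was called in no fit that left out a single array.

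Without control replicates 1 and 2, Slc2a2 differed by -0.34 on fenofibrate and -0.27 on fish oil (adjusted p = 4.97e-04 and 0.0146). Gys2 then differed by -0.32 and -0.33 (adjusted p = 0.0135 and 0.0305). Leaving out control replicate 9 as well gave -0.35 and -0.28 for Slc2a2 and -0.33 and -0.34 for Gys2, all called. Both removals were chosen with the data known, and since replicates 1 and 2 are the lowest controls for these same genes, leaving them out favours a difference. Without replicates 1 and 2, 5 of the 8 genes were called on fenofibrate, beside 40.1% of all genes, and 3 of 8 on fish oil, beside 15.2%. Array weights called 6 of 8 on fenofibrate, beside 46% of all genes.

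Control replicates 1 and 2 carried the highest summed level of 7 acute phase genes among controls, at 16.01 and 16.69 against 14.76 to 15.29 in the other 8. Replicates 1, 2 and 9 had the lowest summed level of 11 circadian clock genes, at 11.94, 12.83 and 12.91 against 13.31 to 13.55 in the other 7. Clock levels ran from 12.51 to 13.16 on fenofibrate, from 12.56 to 13.35 on fish oil and from 11.94 to 13.55 in controls. Acute phase levels reached 15.01 on fenofibrate and 16.02 on fish oil, and the part of either list in the Slc2a2 and Gys2 values was not tested.

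**Figure D4:**
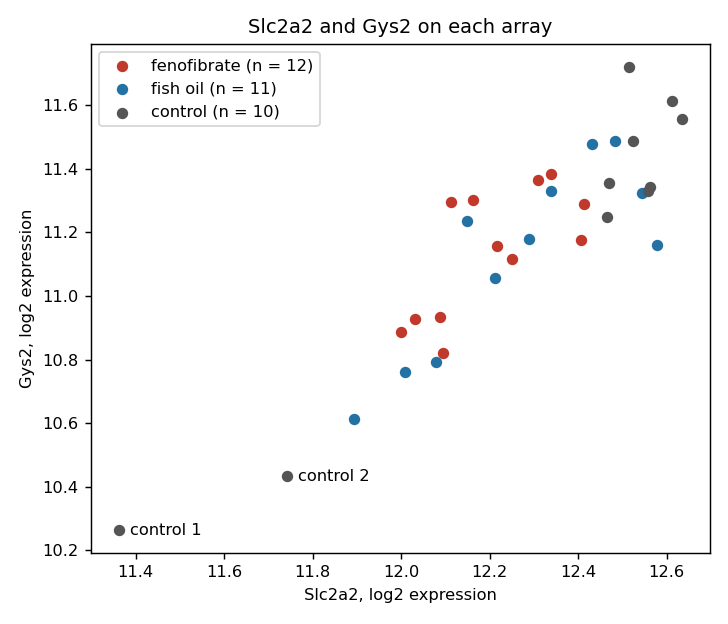
Log2 expression of Slc2a2 (horizontal axis) and Gys2 (vertical axis) on each of 33 arrays, coloured by diet. Control replicates 1 and 2 hold the lowest values of both genes, and the other 8 controls lie at 12.47 to 12.64 for Slc2a2 and at 11.25 to 11.72 for Gys2.

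Over the 33 arrays, taken as deviations from the diet means, Slc2a2 and Gys2 were alike, with a Pearson correlation of 0.90 and a Spearman correlation of 0.73. Without control replicates 1 and 2, the arrays farthest from the median of Slc2a2, the Pearson correlation was 0.80 (n = 31), and within diets it was 0.70 on fenofibrate, 0.84 on fish oil and 0.96 in controls. By Pearson correlation the genes most like Slc2a2 were Fgfrl1 (0.90), Gys2 (0.90) and Bri3 (0.88), and those most like Gys2 were Slc2a2, Gpd1l and Bri3 (0.90 each). By Spearman correlation the order within these sets differed: Gpd1l (0.89) and Bri3 (0.75) stood above Slc2a2 (0.73) for Gys2, and Bri3 and Fgfrl1 (0.78 each) above Gys2 for Slc2a2. By Pearson correlation Pklr varied most like Hgfac (0.81), Limd2 (0.79) and Nadsyn1 (0.79). Pck1 varied most like Shb (0.79), Ppp1r37 (0.77) and Dda1 (0.72), and G6pc most like Slc25a25 (0.73), Nfrkb (0.69) and Pdhb (0.67), while Pck1 and G6pc correlated at 0.12 with each other. Fbp1 varied most like Chchd7 (0.69), Got1 (0.66) and Asl (0.64). Pcx varied most like Hgsnat (0.77), Stard5 (0.75) and Vamp2 (0.73), and Pygl most like Rnf103 (0.66), Camk1d (0.62) and Nudt4 (0.62). These likenesses are descriptions over 33 arrays that share a normalization.

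The rest of the pathway was read from 6 lists of other genes, of which 57 of 90 were measured. On fenofibrate 17 of the 57 were higher, 13 lower and 27 did not pass (22% of all genes were higher and 18.9% lower). On fish oil 3 were higher, 6 lower and 48 did not pass (7.53% and 7% of all genes). Between fenofibrate and fish oil 20 were higher and 14 lower on fenofibrate (19.8% and 19.1% of all genes). The 17 and the 20 both include Ppp1r3g, which passed the filter only through the fenofibrate arrays, as described below. The 20 also include the dim gene Pgm2, which reached the filter level of 4 on 7 fenofibrate, 0 fish oil and 4 control arrays.

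Of 13 other glycolytic genes, 6 were higher and 1 lower on fenofibrate (22% and 18.9% of all genes). Pgam1, a phosphoglycerate mutase, was higher by 0.49 ± 0.04 (adjusted p = 1.88e-11), the enolase gene Eno3 by 0.42 ± 0.09 from a dim control mean of 4.43, and the bisphosphoglycerate mutase gene Bpgm by 0.40 ± 0.09. On fish oil 1 was higher and 2 were lower (7.53% and 7% of all genes). The aldolase gene Aldoc was lower on fish oil by -1.62 ± 0.28 (adjusted p = 1.07e-04), at 5.85 ± 0.78 against 7.48 ± 0.66 in controls (SD). The triose phosphate isomerase gene Tpi1 was lower by -0.18 ± 0.04 (adjusted p = 0.00202; 0.0715 with a replicate block). Bpgm was higher on fish oil by 0.28 ± 0.10 (adjusted p = 0.0454), a call lost without any one of 14 arrays: fish oil replicates 1, 2, 3, 4, 5, 8 and 10 and control replicates 2, 3, 4, 6, 7, 8 and 10. Between the diets 7 of 13 were higher on fenofibrate and 0 lower (19.8% and 19.1% of all genes). Pgam1 was higher by 0.42 ± 0.04, Aldoa by 0.34 ± 0.06 and Aldoc by 1.34 ± 0.27.

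Of 8 other genes of gluconeogenesis and its amino acid and malate steps, 1 was higher and 2 lower on fenofibrate (22% and 18.9% of all genes). Slc37a4, the carrier that brings glucose-6-phosphate to G6pc in the endoplasmic reticulum, was lower by -0.74 ± 0.13 (adjusted p = 1.69e-05), and on fish oil it differed by -0.20 ± 0.13 (adjusted p = 0.329). The difference of fenofibrate from fish oil in Slc37a4 was called (-0.54 ± 0.12, adjusted p = 7.41e-04). The cytosolic aspartate aminotransferase gene Got1 was lower on both, by -0.42 ± 0.12 on fenofibrate and -0.49 ± 0.13 on fish oil, and Mdh2, the mitochondrial malate dehydrogenase, was higher on fenofibrate by 0.45 ± 0.05. The mitochondrial alanine aminotransferase gene Gpt2 was lower on fish oil by -0.36 ± 0.11 (adjusted p = 0.0211), a call lost in 5 alternatives (adjusted p up to 0.101). Its cytosolic relative Gpt was lower on fenofibrate than on fish oil by -0.23 ± 0.08 (adjusted p = 0.0268), a call lost without fish oil replicate 6 or 7 and in 2 other alternatives. Against control, Gpt differed on fenofibrate by -0.16 ± 0.09 (adjusted p = 0.133). It was called without control replicate 1 and in 4 other alternatives, at -0.51 with the mean of its probe sets (adjusted p = 4.70e-04).

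Of 17 other genes listed with glycogen, 6 were higher and 4 lower on fenofibrate (22% and 18.9% of all genes). On fish oil 0 of this list were higher and 2 lower (7.53% and 7% of all genes). That list held Pgm3, which acts in amino sugar synthesis and not on glycogen, and without it 6 of 16 were higher and 3 lower on fenofibrate, and 0 higher and 1 lower on fish oil. Gyg, the glycogenin that primes glycogen, was higher on fenofibrate by 1.04 ± 0.15, 2.05-fold. Gaa, the lysosomal glucosidase, was higher by 0.31 ± 0.03, and its fenofibrate arrays overlapped neither other group. Of all genes, 5.41% had no overlap between fenofibrate and control and 6.34% none between fenofibrate and fish oil.

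Ppp1r3g, a subunit that brings protein phosphatase to glycogen, had 5.16, 6.93 and 8.25 on fenofibrate and 2.48, 3.51 and 4.30 on fish oil, against 1.89, 3.30 and 4.34 in controls. It stood at or above the filter level of 4 on 12 of 12 fenofibrate, 1 of 11 fish oil and 2 of 10 control arrays. It is 1 of the 6 counted as higher, but it passed the filter only through the fenofibrate arrays and so had to differ, and its levels are given without a fold or test because the other groups lie near background.

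Pgm3 was lower on fish oil by -1.20 ± 0.18 (adjusted p = 1.49e-05), with no overlap between fish oil and control arrays, as in 1.05% of all genes. It was lower on fenofibrate by -0.65 ± 0.18. The fenofibrate call of Pgm3 was lost without control replicates 1, 2 and 9 (-0.38, adjusted p = 0.0783). The branching enzyme gene Gbe1 was lower on fish oil by -0.35 ± 0.11 (adjusted p = 0.0340), a call lost without any one of 10 arrays: fish oil replicates 1, 2 and 5 and control replicates 3, 4, 5, 6, 7, 8 and 10.

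Of 6 genes of sugar and glycerol entry, 2 were higher and 2 lower on fenofibrate (22% and 18.9% of all genes). The fructose kinase gene Khk was lower by -0.46 ± 0.08 and the triokinase gene Tkfc by -0.66 ± 0.16, while the mitochondrial glycerol phosphate dehydrogenase gene Gpd2 was higher by 0.46 ± 0.11. The cytosolic form, Gpd1, was higher on both, by 0.32 ± 0.09 on fenofibrate and 0.34 ± 0.09 on fish oil. Khk differed on fish oil by -0.23 ± 0.08 (adjusted p = 0.0567). It was called without any one of 5 arrays (fish oil replicates 6, 7 and 9 and control replicates 1 and 9) and in 7 other alternatives, with adjusted p down to 0.00727 with array weights. Aqp9, a glycerol channel, was lower on fenofibrate than on fish oil by -0.14 ± 0.04 (adjusted p = 0.0126; adjusted p = 0.0515 without the arrays whose label number carries the letter A). Against control, Aqp9 differed on fenofibrate by -0.09 ± 0.04 (adjusted p = 0.108). It was called without control replicate 1 or 2 and in 4 other alternatives, with adjusted p down to 0.00521.

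Of 5 measured carriers, 2 were higher and 1 lower on fenofibrate (22% and 18.9% of all genes). None of the 5 was called on fish oil (14.5% of all genes). The monocarboxylate carriers Slc16a7 and Slc16a1, which move lactate and pyruvate, were higher on fenofibrate by 0.88 ± 0.17 each. Slc16a1 differed on fish oil by 0.27 ± 0.18 (adjusted p = 0.342). It was called with array weights (0.56, adjusted p = 0.00286), without control replicates 1 and 2 (0.51, adjusted p = 0.0158) and without 1, 2 and 9 (0.60, adjusted p = 0.00283). The hexose carrier Slc2a8 was lower on fenofibrate by -0.28 ± 0.06. Of 8 regulators, 0 were higher and 3 lower on fenofibrate (22% and 18.9% of all genes). Hnf4a was lower as above, the glucokinase regulator Gckr by -0.31 ± 0.07 and the glucagon receptor Gcgr by -0.13 ± 0.04 (adjusted p = 0.0115, and 0.0920 with a replicate block). On fish oil Mlxipl was the 1 regulator called, with the losses given above. Gckr differed on fish oil by -0.17 ± 0.07 (adjusted p = 0.0922). It was called without fish oil replicate 7 or control replicate 1 and in 3 other alternatives, with adjusted p down to 0.00617.

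**Figure D5:**
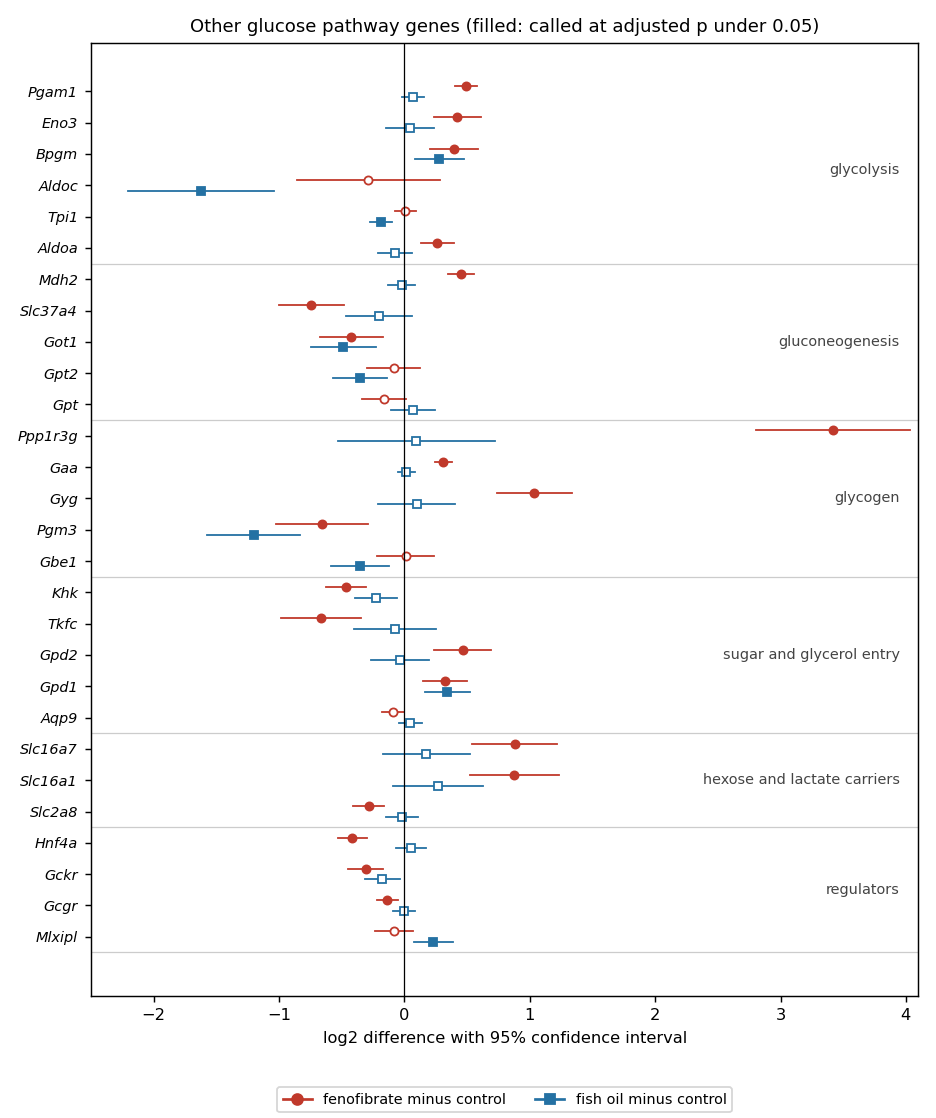
Log2 differences from control with 95% confidence intervals for the named genes of the 6 lists, fenofibrate as circles and fish oil as squares, filled where called. Aldoc and Pgm3 lie below -1 on fish oil and Gyg above 1 on fenofibrate. Ppp1r3g, near background outside fenofibrate, passed the filter only through that diet, so its filled circle is no support for a difference.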

How the data were processed

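Log2 expression values per probe set were deposited by the authors, and the submitters' processing notes name GCRMA 2.24.1. That method corrects background and normalizes by quantiles, so array medians (2.90 to 2.97) are nearly equal. Dim probe sets lie near background, so the size of their differences is uncertain, and differences of very bright probe sets can be compressed. Arrays have no read depth, and their number limits precision. Of 45101 probe sets, 34945 besides 64 control probe sets carry 1 gene, 932 several and 9160 none named here; symbols were updated through gene identifiers of GRCm38.p6 for 34741. Probe sets at or above 4 on at least 10 arrays were kept (17162), and the brightest stood for its gene (9005 genes). limma 3.58.1 (statmod 1.5.0, R 4.3.3) fitted 1 model over 3 diets, two-sided, with Benjamini-Hochberg adjustment over all genes, and was tested on simulated data. Each sample is 1 liver. The members and lists were chosen with earlier results of these data known. Named were all 8 members, the called genes with the smallest adjusted p (up to 3 per list and comparison), and the 3 genes most like each member. Marker lists gave summed levels. Promoter windows came from RefSeq (GRCm38.p6).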

Additional observations from a re-analysis of the deposited data

Results flagged for a closer look

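Among the 8 genes in the 10 control arrays, 1 array stood far from the others by Dixon's gap. Pck1 on control replicate 5 was at 13.74, while the other controls lay between 14.05 and 14.30. Chance flags about 1 in 20 groups, and the larger diet groups were not examined in this way.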

How the results depend on the processing

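The lower Pklr on both diets and the lower Fbp1 and Pygl on fenofibrate against control kept direction and call in every alternative run (36 for fenofibrate, 35 for fish oil). Over all alternatives the 8 genes gave 831 values on the same side of the threshold, 30 newly called and 3 no longer called, all 3 for Pygl between the treated diets. Array weights gave 6 called members on fenofibrate (46% of all genes called) and 15 pathway genes on fish oil (21.7%). Without control replicates 1 and 2, or 1, 2 and 9, both chosen after seeing the data, 5 members were called on fenofibrate (40.1% and 41.9% of all genes) and 3 on fish oil (15.2% and 15.9%). With only the diets compared, 2 members were called on fish oil. The main fit treats all 33 livers as independent. Of 16 pairs of arrays with consecutive label numbers, all within 1 diet, 14 correlated positively over all genes tested, as deviations from the diet means. The mean correlation was 0.15, against -0.12 for other pairs within a diet. Taking deviations from the diet means by itself makes correlations within a diet negative on average, so the -0.12 is largely set by that step. Whether arrays with consecutive label numbers shared a cage is not given. With pairs of consecutive label numbers as a random block (correlation 0.23), 845 genes and 5 pathway genes were called on fish oil, against 1308 and 9, and 1 member between the treated diets. The sample labels state no pairing of arrays with the same replicate number across diets. The 31 correlations of such arrays averaged 0.05 (-0.21 to 0.35), with 12 over 0.1, and cannot show whether the design paired them. With a replicate block, 5 pathway genes were called on fish oil, 1 member between the treated diets (Pygl lost, adjusted p = 0.0984), and Pck1 on fenofibrate (-0.18, adjusted p = 0.0468). The causes were not tested. Leaving out single arrays gave 3 to 4 members on fenofibrate, 1 on fish oil and 2 to 3 between the diets; 29 to 33, 6 to 12 and 31 to 35 pathway genes; and 3495 to 3754, 1099 to 1554 and 3319 to 3544 genes.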
